A study of Arabidopsis thaliana with 16 samples.

Results

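The first hour of the wild-type day was followed in whole seedlings of Arabidopsis thaliana, by setting the 2 samples of the Wassilewskija accession (WS) taken 60 min after dawn against the 2 taken 15 min before it. These 4 samples were chosen by genotype and time from the study's 16, each measured on 1 Affymetrix ATH1 array. The other 12, which are WS at 15 and 30 min and the lhy-21; cca1-11 double mutant at all 4 times, served only to estimate the spread between replicates. All seedlings were 9 days old, had spent 4 days in the cold and dark before growth, and were raised at 22 °C with a day of 18 h light and a night of 6 h. They grew on MS medium with 3% sucrose under cool white fluorescent light of 60 to 65 µE. The samples before dawn were therefore at the end of the dark period. The 60 min samples had had an hour of light. No sample was held in the dark past dawn, so the arrival of light and the hour itself cannot be told apart. In RNA from whole seedlings, fewer cells of a type and less RNA per cell cannot be told apart either.

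In plants the first light of the day meets a circadian clock that has already timed many transcripts to the morning. Photoreceptors and the transcription factor HY5 with its relative HYH switch on genes for pigments and sunscreens such as flavonoids. At the end of the night a leaf has used up most of its starch, and the SnRK1 kinase promotes the use of reserves, amino acid breakdown and autophagy when sugar runs short. Elongation of the seedling stem is faster in the dark than in light, and enzymes that loosen the cell wall, such as expansins and xyloglucan endotransglucosylases, take part in it.

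Of 22746 non-control probe sets, 14878 had signal above their array's 40th percentile (19.1 to 20.4 on the 4 arrays compared) on at least 2 arrays and were tested. Between the end of the night and 60 min of day, 1327 of these passed a Benjamini-Hochberg adjusted p of 0.05 in limma, which is 8.92%. They comprised 526 that rose (3.54%) and 801 that fell (5.38%). The median difference was 0.97 log2 among those that rose and -0.88 among those that fell, and -0.04 over all tested probe sets. A change of at least 2-fold was reached by 250 of the rises and 318 of the falls. The balance of rises and falls depended on how the arrays were scaled: rises made up 39.6% of the calls with the deposited scaling, 44.6% after quantile normalization (549 against 683) and 53.0% when each array was centred on its median (668 against 593). Without replicate 1 or 2 before dawn, 822 and 849 probe sets passed, and with only the 4 arrays in the fit 643 did. In every one of the 1327 both 60 min arrays lay on the same side of both before dawn arrays, which was also so in 45.6% of all tested probe sets. With 2 arrays against 2, an exact permutation test of a single probe set cannot go below p = 0.333, so all p-values come from the fit across all probe sets. No label says that replicates were separate cultures, so p-values measure only the spread between the arrays of a group. The fit pools this spread over all 16 arrays and takes it as equal in the 8 groups. That spread may be technical. Arrays 1 and 2 of a time are its replicates, and where leaving out 1 of the 4 ended a call, the highest adjusted p this gave is printed beside the gene.

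**Figure D1:**
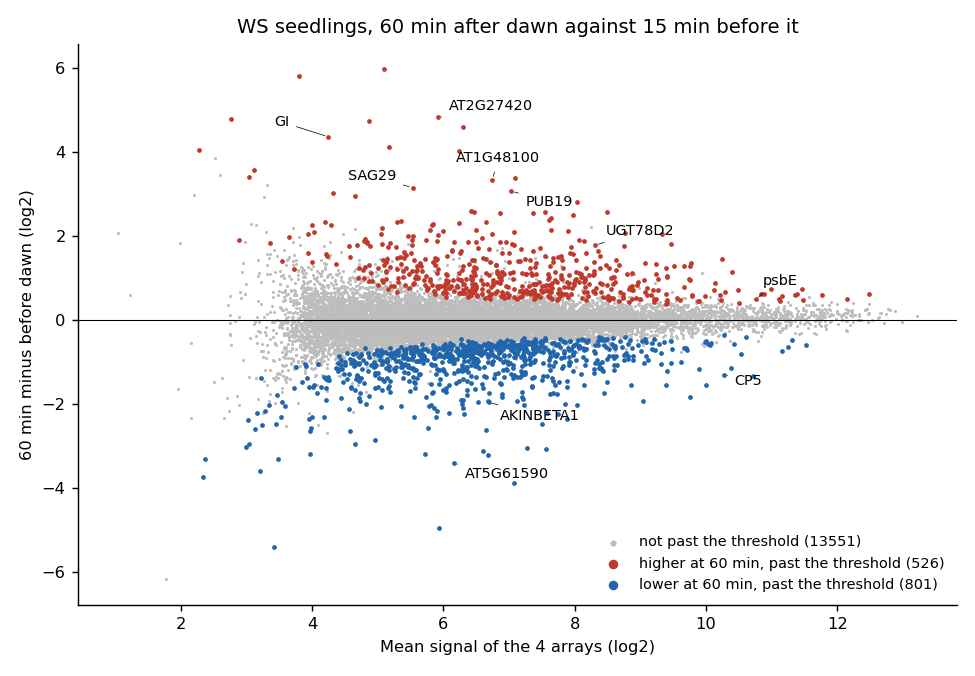
Difference between 60 min and before dawn (log2, vertical axis) against the mean log2 signal of the 4 WS arrays (horizontal axis) for each of the 14878 tested probe sets. Red and blue points are the 526 rises and 801 falls past the threshold and grey points the other 13551, and the labelled genes range from the dim GI to the bright psbE.

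Calls were least frequent among dim probe sets. With the tested probe sets in 5 equal groups by signal, 4.84% of the dimmest group passed, with 41 rises and 103 falls, and 9.98% of the brightest passed, with 156 rises and 141 falls. The brightest group was the only one of the 5 with more rises than falls under the deposited scaling. Some transcripts crossed into or out of the measurable range. Probe sets that were dim, meaning below the 40th percentile, on both before dawn arrays and above it on both 60 min arrays numbered 173, of which 38 rose past the threshold. The reverse pattern was seen in 164, of which 64 fell past it. For a gene that was dim on both arrays of 1 time, only the smallest fold that the percentile allows is given below ("at least").

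**Figure D2:**
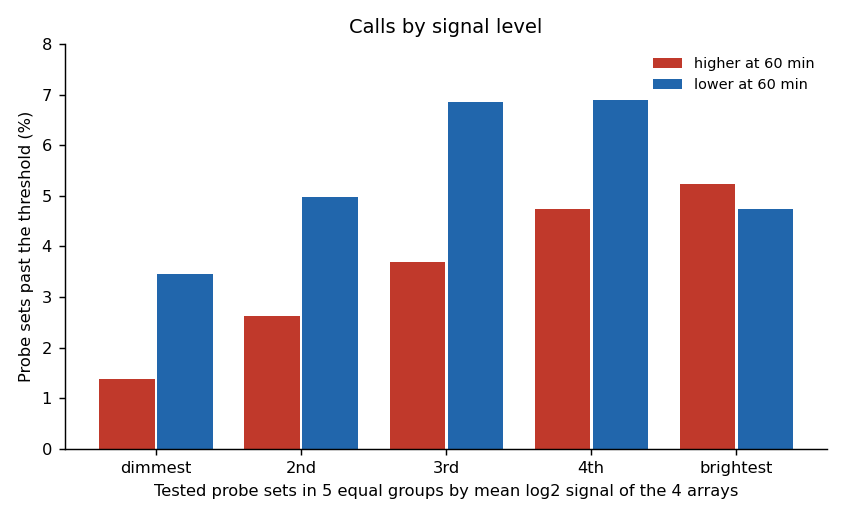
Share of tested probe sets past the threshold (%, vertical axis) in 5 equal groups ordered by mean log2 signal (horizontal axis), with rises in red and falls in blue. Rises increase from 1.38% in the dimmest group to 5.24% in the brightest, and falls lie between 3.46% and 6.89%.

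The 2 replicates correlated at r = 0.975 before dawn and 0.961 at 60 min across tested probe sets, the latter the lowest of the 8 groups of the study. The ratio of 3' to 5' signal of the actin control was 16.8 and 18.6 before dawn and 28.2 and 21.0 at 60 min, that of ubiquitin 3.07 and 3.35 against 2.70 and 2.36, and that of GAPDH 1.45 and 1.51 against 1.17 and 1.47. The 25S ribosomal RNA control stood at 7.15 and 5.85 log2 before dawn and 7.35 and 6.88 at 60 min. Their part in the differences was not tested. Of the organ markers, the leaf gene RCA, which encodes rubisco activase, lay at 6200.1 and 6784 before dawn and 7186 and 7116 at 60 min, and the root and hypocotyl beta-glucosidase PYK10 at 3242 and 4452 before dawn and 3746 and 3271 at 60 min. Both groups overlapped for PYK10, and RCA differed by 0.14 ± 0.12 log2 without passing the threshold. The root hair expansin EXPA7, the remaining root marker, was dim on 3 of the 4 arrays. No seed or flower marker was among the named probe sets.

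The annotation used here names a gene by a symbol for few of the tested probe sets: 1164 of 7984 genes have one, and the rest carry only a locus number. A further 6535 of the 14878 tested probe sets list no gene at all. These held 660 of the 1327 calls (296 rises and 364 falls), for which no function can be given. Of the 650 named or numbered genes that passed, 225 rose and 425 fell, and 92 of them have a symbol (45 rises and 47 falls). Functions can be read mainly from these. Counts of calls in the gene groups below are to be read beside the 8.92% of all tested probe sets that passed. The groups were written with earlier results of these data known, so their counts describe the members and do not test the groups.

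A large rise was that of AT2G27420, with signals of 10.1 and 12.7 before dawn and 330.4 and 311 at 60 min. Both before dawn arrays were dim, and the gene was at least 15.7-fold higher at 60 min (limma adjusted p = 1.99e-08). GI, which encodes GIGANTEA, a large protein of the circadian clock that also links day length to flowering, had 2.21 and 7.98 before dawn and 80.4 and 92.3 at 60 min. It too was dim on both before dawn arrays and clearly measured on both later ones, at least 4.23-fold higher (adjusted p = 4.80e-06). Among listed genes above the dim range on at least 1 array of each time, the largest rise was that of AT1G48100, at 28.8 and 39.8 before dawn and 314 and 370.0 at 60 min, a difference of 3.33 ± 0.20 log2 (adjusted p = 1.74e-08). The 2 times were far apart for it, as they were for AT3G48460 (125 and 178 before dawn and 776 and 997 at 60 min; 2.56 ± 0.23 log2), the brightest of the 20 rises with the largest fitted difference. AT3G44450 and AT3G52740 rose by 2.28 ± 0.18 and 2.32 ± 0.20 log2, AT1G23205 by 2.15 ± 0.25 and AT1G73480 by 2.59 ± 0.23. No function is given for these loci in the annotation.

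Some of the 20 largest rises rested on low or unequal signals. AT3G24750 was dim on 3 of the 4 arrays (4.29 and 0.332 before dawn and 33.2 and 11.8 at 60 min). AT5G07330 lay at 19.2 and 34.9 before dawn and 253 and 60.2 at 60 min and AT2G47780 at 11.6 and 21.3 before dawn and 126 and 40.6 at 60 min, so that in both the first 60 min array was several times the other. AT3G56260 and AT3G55580 were dim before dawn and at least 2.80-fold and at least 1.72-fold higher at 60 min. Leaving out 1 array ended the call of AT3G24750 and AT3G56260 without before dawn array 2 or 60 min array 1 (adjusted p of 0.293 and 0.0994), of AT5G07330 and AT2G47780 without before dawn array 1 or 60 min array 1 (adjusted p of 0.236 and 0.227) and of AT3G55580 without before dawn array 1 (adjusted p of 0.0671). Among probe sets with no gene listed, 247323_at stood at 7.56 and 2.47 before dawn and 256 and 283 at 60 min, at least 13.2-fold higher, and 266720_s_at at 0.456 and 7.66 before dawn and 101 and 107 at 60 min, at least 5.11-fold higher.

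The largest falls included genes that dropped out of the measurable range. AT5G62280 had signals of 34.3 and 30.1 before dawn and 1.19 and 5.95 at 60 min and was at least 1.64-fold lower at 60 min (adjusted p = 2.75e-04). AT4G10910, at 78.1 and 90.1 before dawn and 12.3 and 10.9 at 60 min, was at least 4.27-fold lower. The largest fall among genes still measured at 60 min was that of AT5G61590, listed as DEWAX, an AP2/ERF transcription factor known to repress wax synthesis and to be more abundant in the dark. Its signals were 261 and 211 before dawn and 23.9 and 20.1 at 60 min, a difference of -3.42 ± 0.19 log2 (adjusted p = 1.12e-08). The 60 min arrays lay just above the dim range and both before dawn arrays far above it. AT1G49200 (292 and 284 before dawn and 42.1 and 25.8 at 60 min; -3.13 ± 0.26 log2) and AT2G20670 (224 and 279 before dawn and 37.5 and 43.1 at 60 min; -2.63 ± 0.19 log2) had the same form. AT5G44680, with 556 and 517 before dawn and 98.5 and 109 at 60 min, had the smallest standard error of the 20 largest falls, -2.37 ± 0.14 log2. AT5G19120 and AT1G23390 fell by 2.24 and 2.21 on the log2 scale from signals between 368 and 565.

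Other large falls were measured near the dim range. AT2G25200, AT4G04630, AT4G24630, AT2G03310, AT5G49170, AT1G67860, AT3G21080 and AT4G25940 had before dawn signals between 18.9 and 50.4, and their 60 min arrays were all dim. The bound for them ran from 1.06-fold for AT4G25940 to 2.41-fold for AT4G04630. The call was lost for AT2G25200 and AT4G04630 without before dawn array 2 or 60 min array 1 (adjusted p of 0.105 and 0.0613), for AT4G24630 without any of the 4 arrays (adjusted p of 0.152), for AT2G03310 without before dawn array 2 (adjusted p of 0.122), for AT5G49170 without before dawn array 1 (adjusted p of 0.0546), for AT1G67860 without either before dawn array or 60 min array 1 (adjusted p of 0.312) and for AT4G25940 without either before dawn array or 60 min array 2 (adjusted p of 0.372). AT4G25940 did not pass after quantile normalization or with median centring, and AT1G67860 did not with median centring (adjusted p of 0.0505 to 0.0534). AT1G22330 fell in both of its probe sets, at least 2.04-fold lower in the brighter one and at least 1.96-fold in the other. Among probe sets with no gene listed, 252367_at went from 274 and 427 to 14.1 and 8.59, at least 17.4-fold lower, and 260431_at from 74.0 and 65.6 to 0.456 and 5.86, at least 3.55-fold lower.

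**Figure D3:**
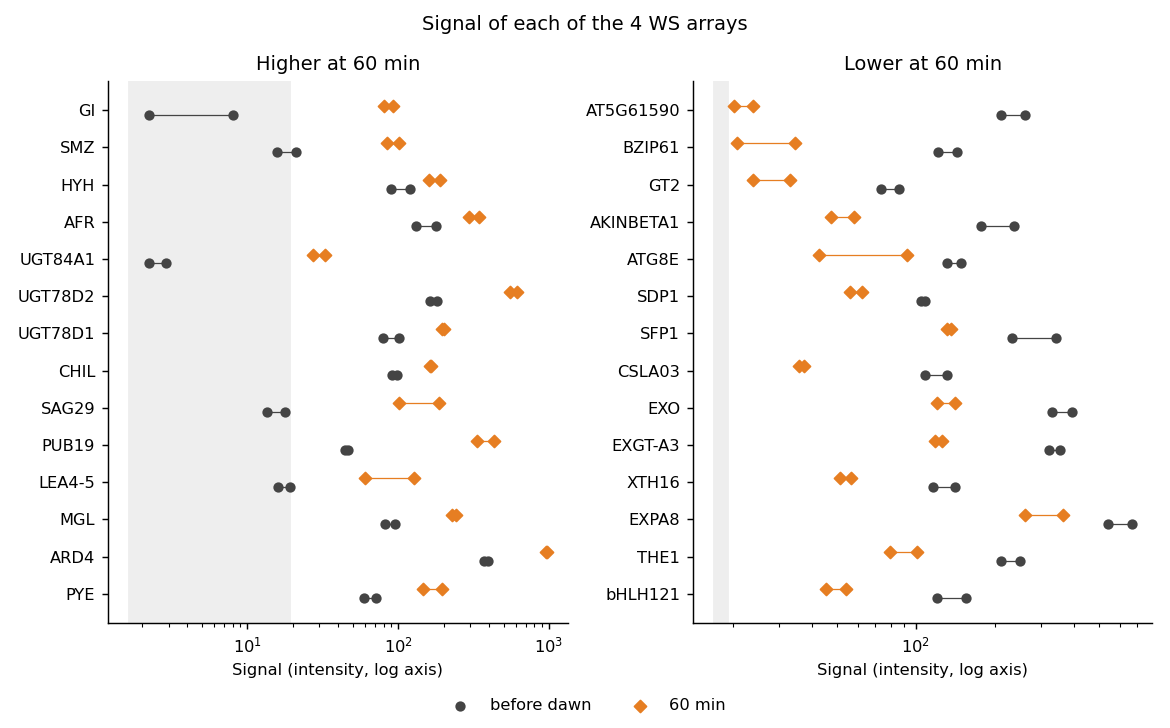
Signal on each of the 4 WS arrays (horizontal log axis, intensity) for 14 genes that rose (left) and 14 that fell (right), with black circles for before dawn and orange diamonds for 60 min, and a line joining replicates. In each gene the circles and diamonds do not overlap, which is so in all 1327 calls. The grey band marks signals below 19.1, where GI, UGT84A1 and SAG29 lay on both before dawn arrays.

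Clock and flowering genes other than GI were little represented among the named probe sets. Of 7 tested genes whose symbols mark them as clock-associated, GI rose and the other 6, which are LIP1, XCT, MYBC1, TIC, FIO1 and PKDM7D, lay between -0.47 and 0.45 log2 without passing. PKDM7D, a histone demethylase (0.45 ± 0.14 log2, adjusted p = 0.0509), passed after quantile normalization (adjusted p = 0.0409) and with median centring (adjusted p = 0.0285). CCA1, LHY, TOC1 and PRR9 have no named probe set in the annotation used here. Their changes therefore cannot be read, and their probe sets may be among those with no gene listed. TIC, which encodes a nuclear clock regulator acting late in the night, had signals of 247 and 324 before dawn and 263 and 323 at 60 min, with overlapping groups. SMZ, a floral repressor of the AP2 family, rose from signals of 15.6 and 21.0, near the dim range, to 84.5 and 102, a difference of 2.35 ± 0.28 log2 (adjusted p = 3.28e-05). Its close relative SNZ differed by 0.79 ± 0.27 log2 (adjusted p = 0.0889) and did not pass.

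Of 2 tested genes of the light signalling list, HYH rose and FHL did not pass. HYH, the bZIP factor related to HY5, had signals of 120.4 and 90.1 before dawn and 159.7 and 190.5 at 60 min (0.74 ± 0.17 log2, adjusted p = 0.0091). AFR, an F-box protein of the far-red response, and SKP2A, an F-box protein that degrades cell cycle factors, are in no list used here and were named because they passed. AFR lay at 131 and 178 before dawn and 296 and 345 at 60 min (1.07 ± 0.25 log2). The 2 times did not overlap in HYH or AFR, which was so in all 1327 calls and in 45.6% of all tested probe sets. SKP2A rose by 0.70 ± 0.18 log2. FHL, which helps phytochrome A enter the nucleus, differed by -0.60 ± 0.46 log2 without passing. With 1 array fewer, the threshold was no longer passed by HYH without before dawn array 2 or 60 min array 2 (adjusted p of 0.125) and by AFR and SKP2A without before dawn array 1 or 60 min array 2 (adjusted p of 0.134 and 0.21).

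Some genes of flavonoid and phenylpropanoid synthesis rose. Against 3.54% rises and 5.38% falls over all tested probe sets, 3 of 5 tested flavonoid genes rose and none fell. Their median was 0.80 log2 with the gene that was dim before dawn set at its bound, against -0.03 over all 7984 tested genes treated in the same way. The list was written with earlier results of these data known, so these values do not test the pathway. UGT78D2, which adds glucose to flavonols and anthocyanidins, went from 163 and 179.8 to 555 and 616, 1.77 ± 0.17 log2 (adjusted p = 2.48e-06). UGT78D1, the flavonol rhamnosyltransferase, went from 101 and 79.7 to 203 and 194 (1.15 ± 0.22 log2). CHIL, a chalcone isomerase-like protein that aids the pathway's first step, went from 98.5 and 90.6 to 162 and 166 (0.80 ± 0.21 log2). In these 3 genes the 2 times did not overlap, which was so in all 1327 calls and in 45.6% of all tested probe sets. UF3GT and DFR, both later in the anthocyanin branch, did not pass. UF3GT lay at 14.4 and 14.6 before dawn, both dim, and 43.2 and 22.5 at 60 min, and DFR differed by 0.32 ± 0.25 log2.

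Of 7 tested phenylpropanoid genes 2 rose, against 3.54% of all tested probe sets, and the other 5 lay between -0.54 and 0.33 log2. Those that rose were UGT84A1 and UGT84A3. Both enzymes make glucose esters of hydroxycinnamic acids, which lead to the sinapate esters that screen ultraviolet light. UGT84A1 was dim before dawn, with signals of 2.22 and 2.88 before dawn and 32.7 and 27.3 at 60 min, and was at least 1.47-fold higher at 60 min (adjusted p = 0.0209). UGT84A3 went from 66.1 and 70.2 to 126 and 138 (0.95 ± 0.18 log2). Not all of these calls held with 1 array left out, which ended that of CHIL and UGT84A1 without any of the 4 arrays (adjusted p of 0.126 and 0.105).

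These enzymes belong to the family of UDP-glycosyltransferases, which add sugars to small molecules. Of its 31 tested members picked by their symbols, 7 rose and 3 fell (7 and 1 after quantile normalization, 8 and 1 with median centring). Picked instead by words in their names and synonyms, 24 members were tested, of which 3 rose and 3 fell. The surplus of rises thus depended on how members were picked. Over all tested probe sets 3.54% rose and 5.38% fell. The other rises among the 31 were GT72B1, which glucosylates phenols and lignin precursors (1.02 ± 0.15 log2), IAGLU, which glucosylates auxin (0.96 ± 0.15), and UGT71C4 (0.67 ± 0.20). GT72B1 stood at 263 and 280.2 before dawn and 557 and 543 at 60 min and IAGLU at 143 and 133 before dawn and 248 and 291 at 60 min. The falls were UGT88A1 (-0.75 ± 0.16 log2), UGT76C2, which inactivates cytokinins (-0.74 ± 0.21), and UGT85A4, which became dim and was at least 1.09-fold lower. Leaving out 1 array ended the call of UGT71C4, UGT76C2 and UGT85A4 without any of the 4 arrays (adjusted p of 0.291, 0.154 and 0.166) and of UGT88A1 without 60 min array 1 (adjusted p of 0.0655).

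Genes known to be induced when sugar is short went in both directions. Of 10 tested sugar starvation genes, 2 fell, 1 rose and 7 did not pass, with a median of -0.24 log2. Over all tested probe sets 5.38% fell and 3.54% rose, and the median over all tested genes was -0.05 log2. AKINBETA1, a beta subunit of the SnRK1 kinase, had signals of 177 and 237 before dawn and 47.6 and 57.9 at 60 min, a difference of -1.96 ± 0.22 log2 (adjusted p = 1.78e-05). AT3G15450 had 391 and 466 before dawn and 106 and 56.3 at 60 min (-2.47 ± 0.25 log2). Each 60 min array was below both before dawn arrays by more than 3-fold in AKINBETA1 and AT3G15450. MGL, which breaks down methionine, moved the other way, from 95.9 and 81.5 to 241 and 226 (1.40 ± 0.17 log2, adjusted p = 3.47e-05). MCCA, MCCB, IVD, ETFBETA, ETFQO and D2HGDH, which carry the breakdown of leucine and lysine, lay between -0.53 and 0.26 log2 and did not pass.

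SDP1, the main lipase that opens stored oil, went from 109 and 104 to 62.2 and 55.9 (-0.85 ± 0.15 log2, adjusted p = 0.00117). Of 9 tested ATG8 genes, which coat the autophagosome membrane, ATG8E and ATG8F fell and the other 7 lay between -0.36 and 0.11 log2. Falls made up 5.38% of all tested probe sets. ATG8E went from 148 and 131 to 92.7 and 42.6 (-1.15 ± 0.28 log2), with a wide gap between its 60 min replicates, and ATG8F from 697 and 552 to 443 and 426 (-0.51 ± 0.14 log2). With arrays centred on their medians 1 of the 2 ATG8 calls was left. ARD4, an enzyme that salvages the methionine skeleton after ethylene or polyamine synthesis, rose from 369 and 391 to 965 and 952 (1.34 ± 0.11 log2, adjusted p = 1.09e-06). The call was lost for ATG8E without either before dawn array or 60 min array 2 (adjusted p of 0.175) and for ATG8F without before dawn array 1 or either 60 min array (adjusted p of 0.263).

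Sugar and nitrate carriers changed in a few members. Of 9 tested SWEET sugar exporters 2 rose, against 3.54% of all tested probe sets. SAG29, also named SWEET15 and known from senescing leaves, was dim before dawn (13.6 and 17.8 before dawn and 186 and 102 at 60 min) and was at least 6.77-fold higher at 60 min (adjusted p = 3.74e-05), while SWEET13 went from 54.6 and 41.6 to 68.2 and 77.8 (0.61 ± 0.18 log2). SFP1, a sugar porter also known from senescence, fell from 343 and 233 to 132 and 136 (-1.08 ± 0.19 log2). Of 7 tested carriers of the NPF family, which move nitrate, peptides and other small molecules, 3 rose and none fell. The list of these carriers was made after the values were seen, so the count is not a result about the family. Rises made up 3.54% of all tested probe sets. AT3G21670, listed as NPF6.4, went from 488 and 559 to 1095 and 1476 (1.28 ± 0.15 log2, adjusted p = 2.11e-05), AT1G68570, listed as NPF3.1, rose by 0.65 ± 0.15 log2 and AT2G26690, listed as NPF6.2, by 0.50 ± 0.13. GTR1 and GTR2, the glucosinolate carriers of this family, differed by 0.42 ± 0.14 and -0.42 ± 0.13 log2 and did not pass. With 1 array fewer, the threshold was no longer passed by SWEET13 without before dawn array 2 or either 60 min array (adjusted p of 0.295), by NPF3.1 without before dawn array 1 or 60 min array 1 (adjusted p of 0.12) and by NPF6.2 without either before dawn array or 60 min array 2 (adjusted p of 0.201).

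**Figure D4:**
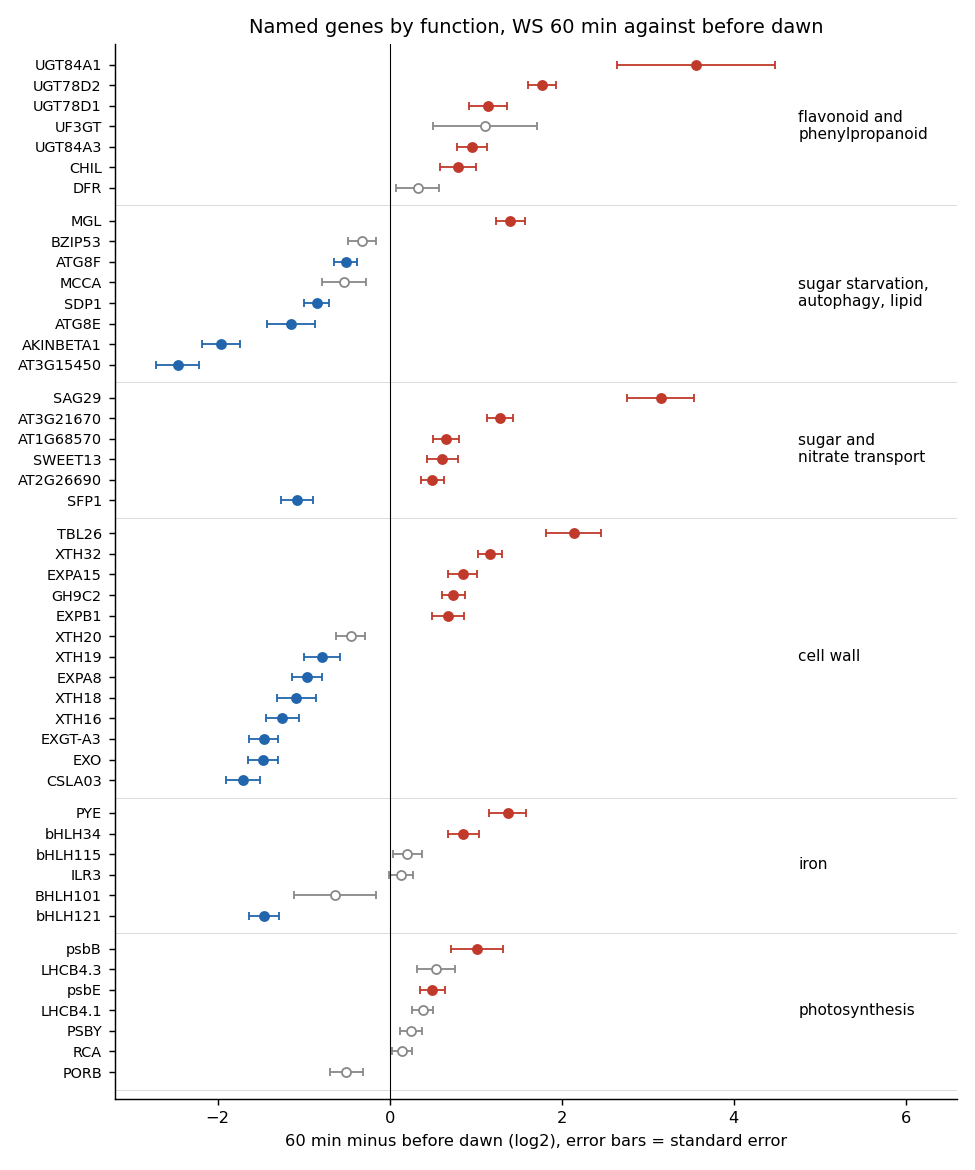
Difference between 60 min and before dawn (log2, horizontal axis) with its standard error from limma for named genes in 6 functional groups, red where the gene rose, blue where it fell and open grey where it did not pass. UGT84A1, UF3GT and SAG29 were dim before dawn, so their fitted values, such as 3.56 for UGT84A1 and 3.15 for SAG29, are not bounds. In the cell wall group, points lie on both sides of 0.

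Wall loosening genes fell and rose, with falls more numerous. Of 11 tested, 6 fell and 2 rose, against 5.38% falls and 3.54% rises over all tested probe sets, and the median was -0.79 log2 against -0.05 over all tested genes. The list was written with earlier results of these data known, so these values do not test the group. Among 7 tested xyloglucan endotransglucosylases, which cut and rejoin the hemicellulose that ties cellulose fibres, 4 fell and 1 rose. EXGT-A3, also named XTH27, went from 322 and 353 to 126 and 119 (-1.46 ± 0.17 log2, adjusted p = 2.11e-05) and XTH16 from 141 and 116 to 51.4 and 56.6 (-1.25 ± 0.19 log2). XTH18 and XTH19 fell by 1.09 ± 0.23 and 0.79 ± 0.21 on the log2 scale. XTH32 went the opposite way, from 188 and 232 to 424 and 517 (1.17 ± 0.14 log2, adjusted p = 2.80e-05). In EXGT-A3, XTH16 and XTH32 the 2 times did not overlap, which was so in all 1327 calls and in 45.6% of all tested probe sets.

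EXO, a protein that promotes growth under brassinosteroids, fell from 329 and 393 to 140.4 and 119.8 (-1.47 ± 0.17 log2), and the leaf expansin EXPA8 fell from 541 and 664 to 262 and 364 (-0.96 ± 0.17 log2). Of 13 tested expansins EXPA8 fell, EXPA15 (0.85 ± 0.17 log2) and EXPB1 (0.68 ± 0.19 log2) rose, and 10 did not pass. Over all tested probe sets 8.92% passed. EXPA15 stood at 264 and 310.0 before dawn and 432 and 613 at 60 min. Not all of these calls held with 1 array left out, which ended that of XTH18 and EXPA15 without before dawn array 1 (adjusted p of 0.101 and 0.0506) and of XTH19 and EXPB1 without either before dawn array or 60 min array 2 (adjusted p of 0.248 and 0.183).

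In families of wall synthesis single genes passed, 1 of 8 cellulose synthase-like genes, 1 of 15 TBL genes, 1 of 12 beta-glucosidases and 1 of 6 GH9 endoglucanases. Against a background of 8.92% these counts are not a result about the families. CSLA03, a synthase-like enzyme of the mannan family, went from 109 and 132 to 35.9 and 37.3 (-1.71 ± 0.20 log2, adjusted p = 2.31e-05). THE1, a receptor kinase that senses the state of the wall, went from 212 and 249.8 to 79.8 and 101 (-1.36 ± 0.18 log2). RALFL33 and RALFL22, small secreted peptides of a family that signals through relatives of THE1, fell by 0.56 ± 0.15 and 0.53 ± 0.16 on the log2 scale, 2 of 6 tested members (1 after quantile normalization and 0 with median centring). TBL26, of a family that acetylates wall polysaccharides, rose from 41.3 and 44.5 to 197 and 181 (2.14 ± 0.32 log2). GH9C2, an endoglucanase, rose by 0.74 ± 0.13 log2 and BGLU40, a beta-glucosidase, by 1.46 ± 0.20. Leaving out 1 array ended the call of RALFL33 without before dawn array 2 or 60 min array 2 (adjusted p of 0.241) and of RALFL22 without any of the 4 arrays (adjusted p of 0.208).

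Iron regulators of the bHLH family moved in opposite directions. PYE, which represses iron storage and transport genes when iron is short, rose from 59.5 and 71.8 to 146 and 196 (1.37 ± 0.22 log2, adjusted p = 4.28e-04), and bHLH34, an activator in the same network, rose from 57.3 and 76.9 to 106 and 136 (0.86 ± 0.18 log2). bHLH121, a partner of bHLH34 that activates the iron response, fell from 120.2 and 155 to 45.5 and 53.9 (-1.46 ± 0.18 log2, adjusted p = 3.62e-05). The 4 others of the 7 tested, ILR3, bHLH104, bHLH115 and BHLH101, lay between -0.64 and 0.20 log2 as fitted and did not pass. Of the 7, 1 that did not pass was dim on both arrays of at least 1 time, so its fitted value is not a bound. Over all tested probe sets 8.92% passed. The call was lost for bHLH34 without before dawn array 1 or 60 min array 2 (adjusted p of 0.103).

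Stress-linked genes rose in a few cases, some unevenly between the 60 min replicates. PUB19, a U-box ubiquitin ligase of the abscisic acid and drought response, had signals of 46.5 and 44.1 before dawn and 332 and 432 at 60 min (3.06 ± 0.38 log2, adjusted p = 3.95e-05), and PUB26, another of the 8 tested U-box ligases, rose by 1.00 ± 0.22 log2. LEA4-5, a protective protein of drying seeds and tissues, was dim before dawn (15.9 and 19.3 before dawn and 128 and 60.5 at 60 min) and was at least 4.32-fold higher. TIL, a lipocalin of heat and cold tolerance, rose by 0.62 ± 0.17 log2. These 2 were the only ones to pass among 15 tested cold and dehydration genes, near the 8.92% of all tested probe sets. The count is thus not a result about the group. After quantile normalization TIL did not pass (adjusted p = 0.0544). In that group AtLEA4-1 stood at 21.2 and 25.8 before dawn and 205 and 33.1 at 60 min, LEA18 at 56.6 and 80.8 before dawn and 298 and 71.6 at 60 min and STZ, a zinc-finger repressor of the stress response, at 127 and 56.5 before dawn and 209 and 47.0 at 60 min, so the first 60 min array was more than 4 times the second in all 3, and none of them passed. EEL, a bZIP factor of late seed genes, was dim before dawn and at least 1.27-fold higher, and Fes1A, a cofactor of HSP70 in heat tolerance, rose by 0.86 ± 0.17 log2. AT1G54410, listed as the dehydrin HIRD11, fell by 0.80 ± 0.13 on the log2 scale and the metallothionein MT1C by 0.65 ± 0.16. With 1 array fewer, the threshold was no longer passed by PUB26 and Fes1A without before dawn array 2 (adjusted p of 0.0634 and 0.0599), by TIL without before dawn array 2 or 60 min array 2 (adjusted p of 0.242), by EEL without before dawn array 2 or 60 min array 1 (adjusted p of 0.222) and by MT1C without before dawn array 1 or 60 min array 2 (adjusted p of 0.175).

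Photosynthesis genes were bright at both times. None of 18 tested nuclear genes of the photosystems, electron transport and light harvesting passed (1 with median centring). Of the 18 differences 15 were positive (13 after quantile normalization), and their median was 0.13 log2. Over all tested probe sets 6802 of 14878 were positive (7300 after quantile normalization). LHCB4.1, an antenna protein of photosystem II, lay at 3583 and 3601 before dawn and 4636 and 4732 at 60 min, a difference of 0.38 ± 0.12 log2 (adjusted p = 0.0647), so its times did not overlap although it did not pass. Groups did not overlap in 45.6% of all tested probe sets. None of 11 tested genes of chlorophyll and tetrapyrrole synthesis passed. With 8.92% of all tested probe sets past the threshold, neither count is a result about its group. PORB, which makes chlorophyllide in the light, lay at 1295 and 1918 before dawn and 1012 and 1216 at 60 min (-0.51 ± 0.19 log2, adjusted p = 0.123).

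Of 69 genes encoded in the chloroplast, 2 rose and none fell, with a median of 0.12 log2, and neither call was made after quantile normalization. Over all tested probe sets 3.54% rose and 5.38% fell. psbB, a core antenna protein of photosystem II, went from 356 and 648 to 888 and 1056 (1.01 ± 0.30 log2, adjusted p = 0.0477) and psbE, a subunit of cytochrome b559 in the same complex, from 1385 and 1533 to 1768 and 2388 (0.50 ± 0.14 log2, adjusted p = 0.0373). All 6 tested genes of the chloroplast ATP synthase had positive differences, from 0.12 to 0.92 log2, and none passed. Positive differences were seen in 48 of the 69 chloroplast genes and in 6802 of all 14878 tested probe sets. After quantile normalization these counts were 42 and 7300, and the chloroplast median was 0.06 log2. Not all of these calls held with 1 array left out, which ended that of psbB without before dawn array 1 or either 60 min array (adjusted p of 0.416) and of psbE without either before dawn array or 60 min array 2 (adjusted p of 0.3). CYTC6A, a nuclear gene for a thylakoid cytochrome, fell by 0.74 ± 0.17 on the log2 scale and lost its call without before dawn array 1 or 60 min array 2 (adjusted p up to 0.145).

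**Figure D5:**
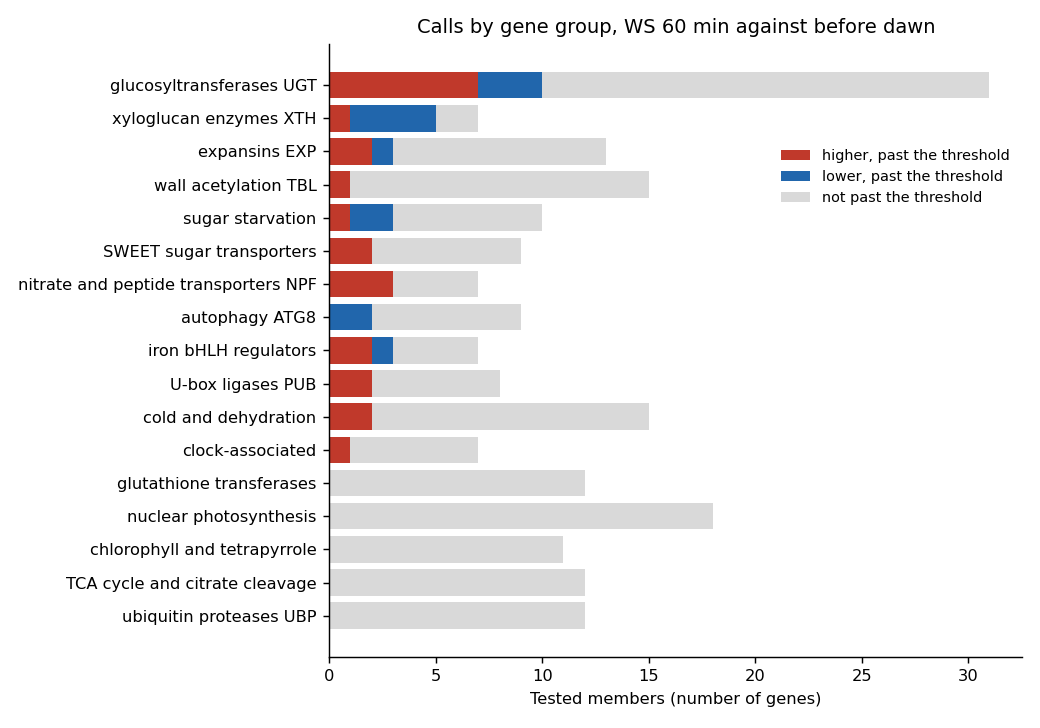
Number of tested genes (horizontal axis) in 17 gene groups that rose (red), fell (blue) or did not pass (grey) between before dawn and 60 min. The UDP-glycosyltransferases picked by symbol hold 7 rises and 3 falls of 31 and the xyloglucan enzymes 1 rise and 4 falls of 7, while the 5 groups at the foot hold none. Over all tested probe sets 3.54% rose and 5.38% fell.

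Other regulators with a symbol changed singly. BZIP61, a bZIP transcription factor, fell from 122 and 143 to 20.7 and 34.6 (-2.30 ± 0.25 log2, adjusted p = 1.09e-05), the only one of 9 tested genes with a bZIP symbol to pass. GT2, a trihelix factor that binds GT elements in light-regulated promoters, fell from 73.7 and 86.2 to 33.2 and 23.9 (-1.50 ± 0.21 log2). GIS, a zinc-finger factor that promotes leaf hairs, rose from 69.3 and 37.6 to 158 and 177 (1.71 ± 0.23 log2, adjusted p = 1.12e-04). STOMAGEN, a secreted peptide that promotes stomata, fell by 0.60 ± 0.15 on the log2 scale. NGA2, a B3 factor of leaf and flower shape, fell by 0.68 ± 0.18, and IAA18, a repressor of auxin responses, by 0.67 ± 0.18. SLY2, an F-box protein of gibberellin signalling, fell by 1.00 ± 0.29, the 1 call among 6 tested genes of that pathway. SLY2 did not pass after quantile normalization (adjusted p = 0.0525) or with median centring (adjusted p = 0.0601), nor did IAA18 with median centring (adjusted p = 0.0546). ATL5, a RING-type ubiquitin ligase, was dim before dawn (1.60 and 3.99 before dawn and 30.0 and 23.7 at 60 min) and at least 1.31-fold higher at 60 min. Leaving out 1 array ended the call of STOMAGEN without either before dawn array or 60 min array 2 (adjusted p of 0.124), of NGA2 without before dawn array 2 or 60 min array 2 (adjusted p of 0.18), of IAA18 without before dawn array 2 or either 60 min array (adjusted p of 0.285) and of SLY2 without either before dawn array or 60 min array 1 (adjusted p of 0.227).

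CCL, listed as CCR-like, fell from 425 and 402 to 149.9 and 123 (-1.61 ± 0.16 log2, adjusted p = 4.69e-06), and CP5, the brightest of the larger named falls, from 1818 and 2074 to 742 and 837 (-1.30 ± 0.17 log2). Other genes named because they passed belong to families with few calls or to none of the lists. KEU, a Sec1 protein needed to complete the new cell wall, fell by 0.57 ± 0.13 on the log2 scale, the exocyst subunit SEC15B, 1 of 8 tested genes of exocyst and secretion, by 0.75 ± 0.14 and the actin-binding NET1D by 0.82 ± 0.21. DIM1A, which methylates ribosomal RNA, fell by 0.88 ± 0.15, the splicing factor U2AF35B by 0.68 ± 0.17 and LSM6B, 1 of 7 tested LSM proteins of the RNA decay and splicing rings, by 0.48 ± 0.14. The receptor kinases GSO1 and MOL1 fell by 0.65 ± 0.19 and 0.69 ± 0.15. Neither LSM6B nor GSO1 passed after quantile normalization or with median centring (adjusted p of 0.0539 to 0.0918). AOR, which reduces reactive carbonyls, rose from 609 and 639.7 to 1098 and 1307 (0.94 ± 0.15 log2). The methionine sulphoxide reductase MSRB9, the 1 call among 18 tested ascorbate and redox enzymes, fell by 0.69 ± 0.17 and the glyoxalase GLX2-1 by 0.69 ± 0.14. The call was lost for KEU without before dawn array 2 (adjusted p of 0.122), for NET1D without before dawn array 1 or 60 min array 1 (adjusted p of 0.172), for U2AF35B and LSM6B without either before dawn array or 60 min array 1 (adjusted p of 0.118 and 0.168), for GSO1 without any of the 4 arrays (adjusted p of 0.16) and for MSRB9 without before dawn array 1 or 60 min array 2 (adjusted p of 0.0934).

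The remaining genes with a symbol that passed had smaller or less readable differences. The rises were CYP78A9, a cytochrome P450 of seed and fruit size that was dim before dawn and at least 1.31-fold higher, CPUORF47 (1.16 ± 0.23 log2), the subtilases ATSBT5.2 (0.97 ± 0.26) and ARA12 (0.47 ± 0.12), the thionin THI2.2 (0.83 ± 0.20), SGT1A, a co-chaperone of disease resistance (0.76 ± 0.20), AR791 (0.90 ± 0.23), SAT32 (0.72 ± 0.21) and ARLA1A (0.69 ± 0.18). The falls were TRM26, which became dim and was at least 1.62-fold lower, RING1 (-0.87 ± 0.25 log2), CIL (-0.86 ± 0.18), CCMH, of cytochrome c assembly in mitochondria (-0.81 ± 0.22), SIC (-0.72 ± 0.20), TSC10A, of sphingolipid synthesis (-0.53 ± 0.15), PEL1 (-0.52 ± 0.15) and the phosphatase TOPP7 (-0.51 ± 0.14). RING1, SIC and PEL1 did not pass after quantile normalization or with median centring, and TSC10A and TOPP7 did not with median centring (adjusted p of 0.0568 to 0.0786). With 1 array fewer, the threshold was no longer passed by CYP78A9 without before dawn array 1 or either 60 min array (adjusted p of 0.202), by ATSBT5.2, CCMH and PEL1 without before dawn array 1 or 60 min array 1 (adjusted p of 0.245, 0.222 and 0.222), by ARA12, AR791 and SIC without either before dawn array or 60 min array 2 (adjusted p of 0.171, 0.101 and 0.216), by THI2.2 and TSC10A without either before dawn array or 60 min array 1 (adjusted p of 0.123 and 0.208), by SGT1A without before dawn array 1 or 60 min array 2 (adjusted p of 0.224), by SAT32 without before dawn array 2 or either 60 min array (adjusted p of 0.333) and by ARLA1A, RING1 and TOPP7 without any of the 4 arrays (adjusted p of 0.167, 0.152 and 0.187).

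Many gene families had no member past the threshold. Of 61 families with at least 3 tested members, 31 had none. They included 12 glutathione transferases, 12 genes of the citric acid cycle, 12 ubiquitin-specific proteases, 10 ubiquitin-conjugating enzymes, 15 serine carboxypeptidases and 7 tubulins, with medians between -0.05 and 0.07 log2. At a background of 8.92% of tested probe sets, an absence of calls in families of 7 to 15 members is not a result about them. The median standard error over all tested probe sets was 0.20 log2, so differences well under 2-fold would mostly not pass.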

How the data were processed

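The authors deposited 1 intensity per probe set and array, on a linear scale, in a series matrix; MAS5 and GCOS were used, per the submitters' processing notes, with versions not given in the sources used here. RNA was labelled by the one-cycle biotin protocol, per the labels' protocols. Trimmed means (2% at each end) were equal on the 4 arrays to within 0.001, and medians lay between 33.6 and 36.2, so the deposited intensities had been scaled to a common level. The 64 control probe sets (0.281% of 22810) were left out.

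Log2 values without an offset were fitted in limma 3.58.1 (R 4.3.3; lmFit on 8 group means of all 16 arrays, eBayes with intensity trend) with the contrast WS at 60 min minus WS before dawn, 2-sided, with Benjamini-Hochberg adjustment over 14878 probe sets. The errors printed are standard errors of this fit (2 arrays per group). Adjusted p-values are from it too, except those given for another scaling or with 1 array left out, which are from refits. The number of arrays limits the precision. The fit was tested on simulated data. A group is dim if below the 40th percentile on both arrays; "at least" bounds divide the bright mean by that percentile or, where larger, by the dim signal itself. Probe sets were named by the array's annotation, updated through a TAIR10.1 gene table (1 gene for 13513, several for 503, none for 8730; 13436 matched); a gene is represented by its brightest probe set.

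Genes were named by rule: the 20 largest rises and falls, up to 6 members of each list by adjusted p, tested clock genes, and 2 rises and 2 falls with no gene listed. All 92 called genes with a symbol, and those named by an NPF or dehydrin synonym, were added after their values were seen. The list of NPF carriers was also added then, and of the genes the rule names only those that bear on a result are described. Members and lists were chosen with earlier results of these data known. Pairing was checked in the WS arrays only: deviations of same-numbered arrays correlated at 0.0265 to 0.218 between groups, all positive. These values do not settle whether replicate numbers pair samples. The fit reported has no term for replicate number, and alternatives with one are given below. Alternatives covered scaling, filter, offset, arrays fitted, variance prior, replicate block and leaving out each array. A planned count of promoter motifs was not run, and no sequence is given, since no sequence table was used here.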

Additional observations from a re-analysis of the deposited data

How the results depend on the processing

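Against 1327 calls (526 rises, 801 falls; 250 and 318 of at least 2-fold), counts moved by over 1.5 times under 4 of 16 alternatives. Fitting only the 4 arrays compared, with fewer arrays behind the spread, gave 643 calls (315 rises, 328 falls). The reason for the lower count was not tested. Leaving out 1 array gave 822 to 1253 calls in all, 345 to 492 rises, 470 to 761 falls, 243 to 267 rises and 286 to 416 falls of at least 2-fold; the counts of 822 and 849 came from leaving out a before dawn array. Adding 16 before the log gave 183 falls of at least 2-fold, as an offset shrinks differences of dim probe sets. All other alternatives gave 1089 to 1592 calls. With the replicate number as a block, 1592 probe sets passed (1409 among the WS arrays only), and all 1327 were among the 1592; the numbers are not shown to pair the samples, so this says nothing of a stronger effect. Of 131 genes past the threshold that fall under the naming rule or its additions, 60 kept the call under every alternative that tested them, 66 kept it on leaving out any 1 array, 71 lost it under at least 1 and none reversed. Among the 16 alternatives the fit on the 4 arrays alone and leaving out before dawn replicate 1 ended the most calls of these genes. Scaling moved the median of all tested probe sets from -0.04 to 0.04 log2 at most. Dim signals limit the differences given as bounds.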
